A study of Arabidopsis thaliana with 12 samples.

Results

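The tissue dependence of the ask1 effect was examined in Arabidopsis thaliana flowers by asking, for every gene, whether the ask1 mutation changed its transcript level differently in open flowers and in flower buds. All 12 of the 12 libraries of the study entered, chosen by their titles, and 21890 of 33602 annotated genes had enough counts to be tested. ask1 plants carried a Ds transposon insertion in ASK1. The controls were plants with the wild-type allele, called ASK1 WT, and Col-0. Each of the 3 genotypes was sampled as open flowers and as flower buds with 2 libraries, so there were 6 groups. All samples carried the strain label Col-0 and came from primary inflorescences, taken 5 h after dawn from plants under 16 h of light at 21 °C and 8 h of darkness at 19 °C. Between 10 and 50 mg of tissue went into each RNA extraction. The labels did not say how many plants were pooled, whether replicates came from separate plants, or how ASK1 WT and ask1 plants were related. p-values therefore measured only the spread between these samples, which may be technical.

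ASK1 encodes a SKP1-like adaptor of SCF ubiquitin ligases, in which it joins a substrate-binding F-box protein to the cullin CUL1. The F-box receptors of jasmonate (COI1) and auxin (TIR1 and its relatives) act in such complexes, and both hormones steer stamen growth, anther opening and the last stages of flower development. Plants without ASK1 are known for defects in male meiosis and for male sterility. A flower bud cluster holds developing anthers with tapetum and immature pollen, whereas an open flower holds ripe pollen, active nectaries and fully grown petals and filaments.

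Levels are given as CPM, a gene's counts relative to the library total, scaled by TMM factors, which compare a gene between libraries but not one gene with another. The ask1 effect in a tissue is the log2 difference between ask1 and the mean of ASK1 WT and Col-0, and the tissue difference is the effect in open flowers minus the effect in buds. A positive tissue difference means that the ask1 effect was higher in open flowers, whether through a rise there or a fall in buds. Effects carry their SE from edgeR with 2 libraries per group, and a gene rose, fell or differed between tissues where the quasi-likelihood test of edgeR gave it a p under 0.05 after Benjamini-Hochberg adjustment over the 21890 genes.

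Libraries held 13780265 to 23426466 counts in genes, and 22825 to 24008 genes were detected in each. The tissue labels fitted the list of tapetum and pollen wall genes. In Col-0, 33 of its 43 tested genes were at least 4-fold higher in buds and 2 at least 4-fold higher in open flowers. Of all 21890 tested genes, 1468 were so in buds and 1565 in open flowers. Over all genotypes, the summed CPM of the list was 7632 to 14620 in bud libraries and 575 to 793.7 in open-flower libraries. Genes of mature pollen and pollen tubes were less clear, with 18 of 49 at least 4-fold higher in Col-0 open flowers and 8 in buds. A pair of ask1 libraries stood apart. The ask1 open-flower replicates correlated at r = 0.971 over genes, against 0.988 to 0.995 within the other groups, and the ratio of replicate 1 to its controls fell with exon length (Spearman's rho = -0.484 over genes). ask1 flower bud 2 held 880.2 CPM in summed rapid stress transcription factors, against 287.5 CPM in ask1 flower bud 1 and 196.9 to 383.8 CPM in the control buds. The part of these features in the results was not tested, and results that moved without a library are given with and without it.

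ASK1 (AT1G75950) was at 50.9 and 29.6 CPM in ask1 open flowers, against 289 and 299 CPM in ASK1 WT open flowers and 307 and 310 CPM in Col-0 open flowers. In buds it was at 10.1 and 29.1 CPM in ask1, against 247 and 250 CPM in ASK1 WT and 257 and 258 CPM in Col-0. Every ask1 library lay below every control library of its tissue. The effect was -2.90 ± 0.37 in open flowers and -3.70 ± 0.39 in buds, and the tissue difference of 0.80 ± 0.46 missed the threshold (edgeR Benjamini-Hochberg adjusted p = 0.28). It was 0.22 without ask1 flower bud 1 and 1.74 without ask1 flower bud 2. ASK2, the closest paralog, was at 106 and 72.9 CPM in ask1 open flowers and 64.6 to 70.8 CPM in the 4 control libraries, with a tissue difference of 0.42 ± 0.20 that also missed the threshold (edgeR Benjamini-Hochberg adjusted p = 0.188). It was 0.016 without ask1 open flower 1 and 0.66 without ask1 open flower 2.

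Effects in the 2 tissues were related but far from equal. Over the 21890 genes they correlated at Pearson's r = 0.463 and Spearman's rho = 0.426 across genes, and 14133 genes (64.6%) had effects of one sign. The libraries of the 2 tissues are different samples, and genes are not independent replicates. In open flowers 4075 genes rose (18.6% of those tested) and 3917 fell (17.9%), and in buds 2322 rose (10.6%) and 3944 fell (18%). Rises and falls within the gene lists below are to be read against these shares. The tissue difference passed for 2210 genes (10.1%), with 1364 higher (6.23%) and 846 lower (3.86%) in open flowers.

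The higher group was made largely of genes that fell in buds alone or rose in open flowers alone. Of the 1364 genes, 504 fell in buds without passing in open flowers, 469 rose in open flowers without passing in buds, and 167 fell in buds and rose in open flowers. A further 163 fell in both tissues but less in open flowers. Of the 846 lower genes, 359 fell in open flowers without passing in buds, 232 rose in buds without passing in open flowers, and 95 rose in buds and fell in open flowers. The difference passed against each control alone for 481 of the higher and 291 of the lower genes, and was at least 2-fold for 877 and 497. With no filter on low counts 902 genes were higher and 1230 lower, so the predominance of higher genes did not hold without the filter. Nor did it hold without ask1 flower bud 1 (543 higher, 563 lower), ask1 open flower 1 (1165 and 2453) or a single control open-flower library (548 and 684, 554 and 727 for ASK1 WT, 547 and 709, 585 and 763 for Col-0). The higher count was 692 to 894 without a single control bud library and 5188 without ask1 open flower 2. The lower count was 445 to 555 without a single control bud library, 505 without ask1 flower bud 2 and 4228 without ask1 open flower 2. No gene called in both the full set and any reduced set changed sign.

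**Figure D1:**
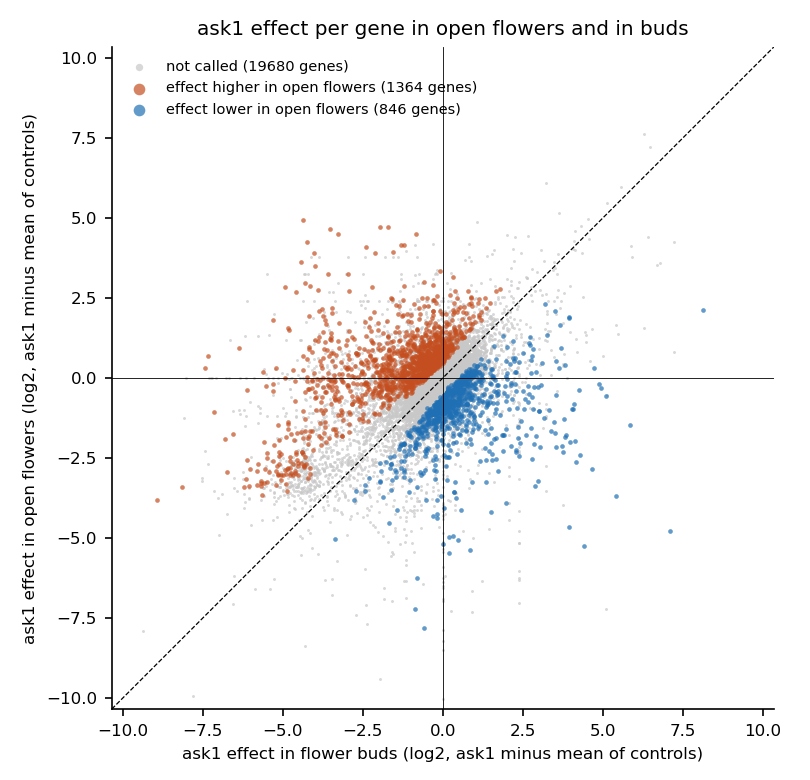
Each point is 1 of the 21890 tested genes, with the ask1 effect (log2, ask1 minus the mean of controls) in flower buds on the x axis and in open flowers on the y axis. Genes whose effects differed between tissues (1364 higher and 846 lower in open flowers) lie away from the dashed line of equal effects, and a cloud of genes with deep falls in buds but near 0 in open flowers stretches to the left.

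Among the highest tissue differences were those of transporter and pump genes whose transcripts were far higher in control buds than in control open flowers. HA9 (AT1G80660, chromosome 1, 30315964 to 30320197 in TAIR10.1), an anther plasma membrane proton pump, was at 4.63 and 9.54 CPM in ask1 open flowers, against 1.98 and 1.11 CPM in ASK1 WT and 1.63 and 2.79 CPM in Col-0. In buds it was at 23.1 and 74.6 CPM in ask1, against 534 and 685 CPM in ASK1 WT and 622 and 780 CPM in Col-0. The ask1 libraries were thus all high in open flowers and all low in buds, with no overlap in either tissue. The effect was 1.93 ± 0.49 in open flowers and -3.75 ± 0.49 in buds, a difference of 5.67 ± 0.67 (edgeR Benjamini-Hochberg adjusted p = 0.00113). HA9 overlaps AT1G80650 on the opposite strand, and without a known strand setting for the counting, reads of both genes cannot be told apart.

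The same shape was seen in SULTR3;5 (AT5G19600), a gene of the sulfate transporter family. It was at 13.7 and 23.3 CPM in ask1 open flowers, against 9.45 to 11.1 CPM in the 4 control libraries, and at 3.05 and 7.18 CPM in ask1 buds, against 57.6 to 76.5 CPM in control buds. No ask1 library overlapped the controls, and the difference was 4.61 ± 0.41 (edgeR Benjamini-Hochberg adjusted p = 0.000469). TIP1;3 (AT4G01470), a vacuolar aquaporin of pollen, was at 2.63 and 1.94 CPM in ask1 open flowers, against 0.557 to 1.52 CPM in controls, and at 2.84 and 5.76 CPM in ask1 buds, against 38.4 to 45.4 CPM in controls. It too did not overlap in either tissue, and differed by 4.46 ± 0.45 (edgeR Benjamini-Hochberg adjusted p = 0.000713). In all 3 genes the controls were far lower in open flowers than in buds, and ask1 lay above them in open flowers and below them in buds.

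Other genes of this kind fell steeply in buds, and of those named here STP6 also rose in open flowers, while the rest were not called there. The phosphate transporter family gene PHT1;7 (4.91 ± 0.69) and VATG3 (4.24 ± 0.71), a subunit of the vacuolar proton pump, kept their calls whichever library was left out. The hexose transporter genes STP6 (5.67 ± 0.87) and STP9 (4.91 ± 0.70), the RNA-binding protein gene LARP6c (4.50 ± 0.82), the glutamine synthetase gene GLN1;5 (4.09 ± 0.82), the proton pump gene AHA6 (3.55 ± 0.66) and the defensin-like gene LCR5 (7.26 ± 1.26) passed with all libraries. STP6 and LCR5 lost the call without ask1 open flower 1. STP9, LARP6c, GLN1;5 and AHA6 lost it without either ask1 open-flower library. STP9 overlaps a gene on the opposite strand. Several of these genes lay near the floor of 3 counts in control open flowers, which was 0.135 to 0.186 CPM there. Control open flowers held 0 to 0.248 CPM of LCR5, 0.058 to 0.360 CPM of GLN1;5, 0.270 to 0.495 CPM of VATG3 and 0.180 to 0.666 CPM of PHT1;7. LARP6c (0.292 to 0.666 CPM), STP6 (0.360 to 0.557 CPM) and STP9 (0.350 to 0.867 CPM) were little higher there. A fall in open flowers could hardly have been seen in any of these genes, so the sizes of their differences are uncertain.

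AAE11 (AT1G66120), an acyl-activating enzyme gene, followed another course. It was at 133 and 91.8 CPM in ask1 open flowers, against 450 and 424 CPM in ASK1 WT and 262 and 388 CPM in Col-0, and at 0.545 and 0.542 CPM in ask1 buds, against 89.6 and 77.8 CPM in ASK1 WT and 26.9 and 39.1 CPM in Col-0. All ask1 libraries lay below all controls, by far the most in buds. It fell by 1.75 ± 0.22 in open flowers and fell by 6.57 ± 0.35 in buds, a difference of 4.83 ± 0.41 (edgeR Benjamini-Hochberg adjusted p = 0.000344).

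As a group, the 49 tested genes of mature pollen and pollen tubes were low in ask1 in both tissues: 37 fell and 6 rose in open flowers, and 45 fell and 0 rose in buds. Median effects were -2.69 in open flowers and -3.47 in buds, against 0.016 and -0.051 over all tested genes. In bulk tissue, fewer pollen grains and less RNA per grain cannot be told apart. The tissue difference passed in 12 genes as higher (24.5%, against 6.23% of all genes) and in 3 as lower. The higher count was 26 without ask1 flower bud 2 and 7 without ask1 open flower 1. The lower count was 6 without ask1 open flower 2, and 1 without ask1 flower bud 2, any single ASK1 WT or Col-0 bud library, or ASK1 WT open flower 1. Of the 15 called genes, 5 kept the call whichever library was left out.

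Those 5 did not all move one way. SUC1, a pollen sucrose transporter gene, was at 288 and 341 CPM in ask1 open flowers, against 159 to 200 CPM in controls, and at 98 and 143 CPM in ask1 buds, against 283 to 369 CPM in controls. STP4, a monosaccharide transporter gene, was at 78.2 and 107 CPM in ask1 open flowers, against 28.5 to 37.1 CPM in controls, and at 26.8 and 45.6 CPM in ask1 buds, against 54.1 to 74.8 CPM in controls. Both were high in ask1 open flowers and low in ask1 buds without overlap, and differed by 2.21 ± 0.26 and 2.35 ± 0.29. The pollen MADS-box gene AGL94 (2.69 ± 0.43) fell in buds and was not called in open flowers, and TIP1;3 is described above. MYB101, a transcription factor gene of the pollen tube, went the other way with -2.16 ± 0.18 (edgeR Benjamini-Hochberg adjusted p = 0.000344). It was at 12.3 and 11.1 CPM in ask1 open flowers, against 95.2 to 118 CPM in controls, and at 19 and 22.4 CPM in ask1 buds, against 38.4 to 45.8 CPM in controls. Its ask1 libraries were low in both tissues, more so in open flowers.

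**Figure D2:**
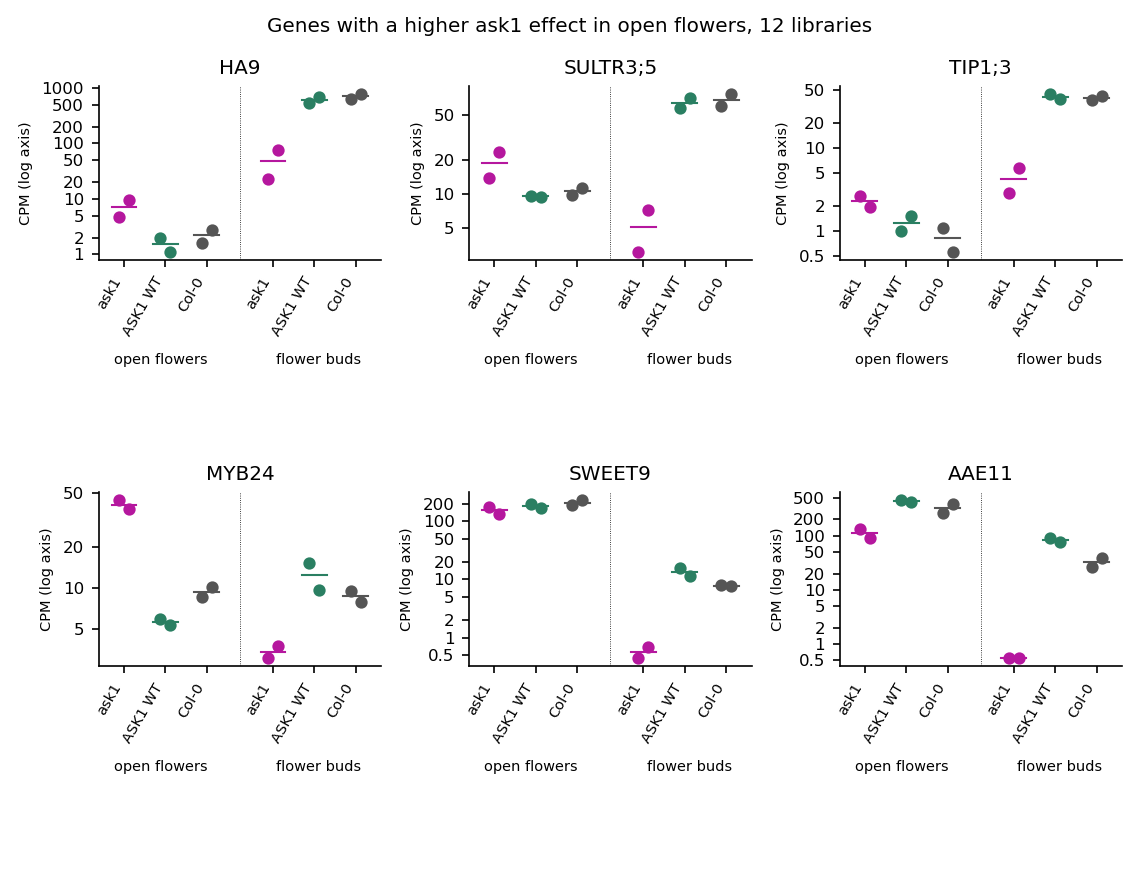
CPM on log axes (y) in the 12 libraries for 6 genes with a higher ask1 effect in open flowers, with groups on the x axis, 1 point per library and a bar at the group mean. In HA9, SULTR3;5 and TIP1;3 ask1 lies above the 4 controls in open flowers and below them in buds, MYB24 is highest in ask1 open flowers, and SWEET9 and AAE11 are below 1 CPM in ask1 buds.

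In the list for pollen wall and tapetum, the nurse tissue of developing pollen, 3 of 43 genes were higher and 2 lower. These shares (6.98% and 4.65%) were close to those of all genes (6.23% and 3.86%), and both counts rose without ask1 open flower 2. Only 17 of the 43 had at least 10 counts in each of the 4 ask1 or control groups of a tissue. In Col-0, 33 were at least 4-fold higher in buds. Effects in open flowers could thus hardly be measured for many members, and the counts do not describe the tapetum. GRP18, a pollen coat glycine-rich protein gene (2.58 ± 0.44), kept its call whichever library was left out. It was at 0.835 and 0.471 CPM in ask1 open flowers, against 0.121 to 0.405 CPM in controls, and at 70.9 and 77.6 CPM in ask1 buds, against 155 to 183 CPM in controls. Its open-flower controls lay near the floor of 3 counts, so the size of its difference is uncertain.

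The stamen MYB factors MYB21, MYB24, MYB57 and MYB108, which act downstream of jasmonate in filament growth and anther opening, all had higher ask1 effects in open flowers. MYB24 (AT5G40350, chromosome 5, 16138544 to 16141134 in TAIR10.1) was at 43.8 and 37.9 CPM in ask1 open flowers, against 5.94 and 5.37 CPM in ASK1 WT and 8.54 and 10.2 CPM in Col-0. In buds it was at 3.05 and 3.79 CPM in ask1, against 15.3 and 9.62 CPM in ASK1 WT and 9.48 and 7.9 CPM in Col-0. It was above all controls in open flowers and below all controls in buds, 5.61-fold higher and 3.05-fold lower on average. The difference was 4.09 ± 0.29 (edgeR Benjamini-Hochberg adjusted p = 0.000144).

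MYB57 was at 81.3 and 45 CPM in ask1 open flowers, against 77.4 to 116 CPM in controls, and at 0.218 and 0.474 CPM in ask1 buds, against 4.26 to 18.24 CPM in controls. MYB108 was at 24 and 26.1 CPM in ask1 open flowers, against 21.7 to 29.1 CPM in controls, and at 1.58 and 2.98 CPM in ask1 buds, against 7.41 to 27.6 CPM in controls. In both, ask1 and control libraries overlapped in open flowers and were apart in buds, with differences of 3.89 ± 0.59 and 2.70 ± 0.35. By the test MYB57 fell in open flowers as well (-0.73 ± 0.25), and MYB108 was not called there. MYB57 lost the call with both ask1 open flower 1 and ask1 flower bud 2 left out. MYB21 passed at 1.68 ± 0.40, but was 1.06 without ask1 open flower 1 and lost the call without ask1 flower bud 1, ask1 open flower 1, ASK1 WT flower bud 1, either ASK1 WT open-flower library, Col-0 flower bud 1 or Col-0 open flower 1, against Col-0 alone and with the trend with gene length removed. MYB21, MYB24 and MYB57 each overlap a gene on the opposite strand, whose reads cannot be told apart from theirs.

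Several genes on the nectary and petal list were near control levels in ask1 open flowers and low in ask1 buds. SWEET9 (AT2G39060), the sucrose exporter of nectaries, was at 180 and 134 CPM in ask1 open flowers, against 171 to 231 CPM in controls, and at 0.436 and 0.677 CPM in ask1 buds, against 7.73 to 15.7 CPM in controls. The groups overlapped in open flowers and were far apart in buds, where SWEET9 was 18.7-fold lower in ask1. The difference was 3.89 ± 0.33 (edgeR Benjamini-Hochberg adjusted p = 0.000394). The sesquiterpene synthase gene TPS21 (2.19 ± 0.22), whose enzyme makes floral scent compounds, and FPF1 (1.47 ± 0.23), a gene that promotes flowering, had the same form. Both fell in buds and were not called in open flowers. Of the 14 genes on this list 5 were higher (35.7%, against 6.23% of all genes) and 0 lower. The other 2 were CRC at 0.74 ± 0.20, which lost the call without any library but ask1 open flower 2, and BPEP at 1.195 ± 0.27, which lost it without ask1 flower bud 1, ask1 open flower 1, either ASK1 WT open-flower library or Col-0 open flower 1, and neither passed against Col-0 alone. CRC fell in buds and was not called in open flowers. BPEP had another form, with a rise in open flowers (0.71 ± 0.18) and no call in buds. The list count was 3 without any one of ask1 flower bud 1, ask1 open flower 1, either ASK1 WT open-flower library or Col-0 open flower 1.

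Of 17 sulfur-deficiency genes 10 fell in ask1 open flowers and 15 in ask1 buds, with medians of -0.655 and -1.90. The tissue difference was higher in 6 (35.3%, against 6.23% of all genes) and lower in 0, or in 1 at an unadjusted p under 0.05 and 0 by DESeq2. The sulfate uptake transporter gene SULTR1;2 was at 8.42 and 9.13 CPM in ask1 open flowers, against 9.39 to 10.5 CPM in controls, and at 2.35 and 2.71 CPM in ask1 buds, against 11.6 to 16.5 CPM in controls. It was just below the controls in open flowers and far below them in buds, with a difference of 2.26 ± 0.25 (edgeR Benjamini-Hochberg adjusted p = 0.000884). For the LSU genes, named for their response to low sulfur, the controls themselves differed. LSU3 was at 4.05 and 2.89 CPM in ask1 open flowers, against 14.1 and 11.8 CPM in ASK1 WT and 1.94 and 2.6 CPM in Col-0, and at 1.64 and 1.42 CPM in ask1 buds, against 8.5 and 5.79 CPM in ASK1 WT and 24.9 and 38.2 CPM in Col-0. In open flowers its ask1 libraries lay between the controls. The difference was 2.63 ± 0.40 for LSU3, 2.86 ± 0.58 for LSU1 and 1.54 ± 0.31 for LSU2, but against ASK1 WT alone only 0.30, 0.13 and 0.32, none of which passed. LSU4 (1.91 ± 0.40) lost the call without ask1 flower bud 1 and was 1.103 without ask1 open flower 1. Against ASK1 WT alone 2 list members were higher and 1 lower, and against Col-0 alone 11 were higher. Without ask1 open flower 2, 8 were higher and 2 lower.

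Of 32 circadian clock genes, 7 had a higher effect in open flowers (21.9%, against 6.23% of all genes) and 0 a lower one (1 at an unadjusted p under 0.05, 0 by DESeq2). BOA and LUX encode related factors, of which LUX belongs to the evening complex that represses other clock genes. BOA was at 6.04 and 10 CPM in ask1 open flowers, against 1.48 to 2.85 CPM in controls, and at 7.8 and 11.7 CPM in ask1 buds, against 21.9 to 31 CPM in controls. LUX was at 37.1 and 49.3 CPM in ask1 open flowers, against 9.72 to 11.9 CPM in controls, and at 40 and 38.5 CPM in ask1 buds, against 22.3 to 25.6 CPM in controls. BOA was thus high in ask1 open flowers and low in ask1 buds, whereas LUX was high in both, without overlap, and they differed by 3.41 ± 0.35 and 1.29 ± 0.17. Both overlap a gene on the opposite strand. CDF1, a Dof repressor of flowering genes, differed by 1.82 ± 0.30 through a fall of 1.31 in buds. The list held 10 higher and 4 lower genes without ask1 open flower 2 and 7 higher and 1 lower without ask1 open flower 1. The higher count was 3 without ask1 flower bud 1, either ASK1 WT open-flower library or Col-0 open flower 1, and 4 without ASK1 WT flower bud 2 or Col-0 flower bud 1. All samples were taken at 1 time of day, so a level and a phase of these rhythmic genes cannot be told apart.

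Auxin genes gave few calls that held. Proteins of the Aux/IAA repressor genes are degraded through SCF complexes with TIR1. Of 26 such genes 3 were higher (11.5%, against 6.23% of all genes) and 0 lower. The lower count was also 0 at an unadjusted p under 0.05 and by DESeq2. Differences were 2.18 ± 0.44 for IAA19 and 1.82 ± 0.39 for IAA14. IAA19 fell in both tissues, and lost the call without ask1 flower bud 1, while its difference was 1.26 without ask1 open flower 1. IAA14 lost its call without either ask1 bud library, and neither gene passed against Col-0 alone. The list count was 0 without ask1 flower bud 1, 1 without ask1 flower bud 2 and 9 without ask1 open flower 2, and without ask1 open flower 1 it was 3 higher and 3 lower. Of 27 expansin genes, whose proteins loosen cell walls, 2 were higher (7.41%) and 3 lower (11.1%, against 3.86% of all genes). Both counts moved when either ask1 open-flower library was left out. EXPA11 (2.37 ± 0.29) was at 226 and 157 CPM in ask1 open flowers, against 95.4 to 171 CPM in controls, and at 16.4 and 20.8 CPM in ask1 buds, against 47.4 to 68.5 CPM in controls. EXPA4 (-1.42 ± 0.16) was at 161 and 135 CPM in ask1 open flowers, against 311 to 365 CPM in controls, and at 66.4 and 73.6 CPM in ask1 buds, against 53.2 to 71.5 CPM in controls. The ask1 libraries were thus apart from the controls in buds alone for EXPA11 and in open flowers alone for EXPA4. By the test EXPA11 rose in open flowers (0.69 ± 0.19) and fell in buds (-1.68 ± 0.22). EXPA4 fell in open flowers and was not called in buds.

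Jasmonate genes had lower ask1 effects in open flowers, and no single library moved their count by over 1.5 times. Jasmonate is made from plastid fatty acids by LOX, AOS, AOC and OPR3 enzymes. Its perception by COI1 leads to degradation of JAZ repressors, which frees MYC2, and MYC2 in turn raises transcription of LOX and JAZ genes. Of 46 tested genes 19 were lower in open flowers (41.3%, against 3.86% of all genes) and 4, the stamen MYB genes above, were higher. In open flowers 2 rose and 24 fell, and in buds 17 rose and 6 fell, with medians of -0.47 in open flowers and 0.274 in buds. Over all genes 18.6% rose and 17.9% fell in open flowers, and 10.6% rose and 18% fell in buds. Of the 23 called genes, 18 kept the call whichever library was left out.

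Among the biosynthesis genes, LOX3 (AT1G17420, chromosome 1, 5977323 to 5981521 in TAIR10.1) was at 15 and 19.2 CPM in ask1 open flowers, against 53.7 and 57 CPM in ASK1 WT and 71.1 and 50.5 CPM in Col-0. Bud levels were 67 and 117 CPM in ask1, against 30.6 and 30.6 CPM in ASK1 WT and 37.4 and 38.9 CPM in Col-0. The ask1 libraries were lowest in open flowers and highest in buds, with no overlap. LOX3 fell by 1.76 ± 0.23 in open flowers and rose by 1.43 ± 0.20 in buds, a difference of -3.19 ± 0.31 (edgeR Benjamini-Hochberg adjusted p = 0.000561). LOX4 (-4.42 ± 0.51), AOC3 (-3.53 ± 0.46), OPCL1 (-2.73 ± 0.34), LOX2 (-1.70 ± 0.23) and OPR3 (-1.35 ± 0.22) likewise fell in open flowers, rose in buds and kept the call whichever library was left out. AOS passed at -1.07 ± 0.29, but lost the call without any library other than ask1 flower bud 1 and against either control alone, and was -0.55 without ask1 flower bud 2.

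Among the JAZ repressors, JAZ1 (AT1G19180) was at 48.6 and 44.2 CPM in ask1 open flowers, against 102 and 99.7 CPM in ASK1 WT and 159 and 157 CPM in Col-0. Bud levels were 44.1 and 77 CPM in ask1, against 29.7 and 27.9 CPM in ASK1 WT and 33.2 and 35 CPM in Col-0. In controls JAZ1 was several times higher in open flowers than in buds, whereas in ask1 the 2 tissues overlapped. It fell by 1.45 ± 0.19 in open flowers and rose by 0.95 ± 0.17 in buds, a difference of -2.39 ± 0.26 (edgeR Benjamini-Hochberg adjusted p = 0.00084). JAZ5 (-3.74 ± 0.40), JAZ6 (-1.33 ± 0.17) and JAZ10 (-0.71 ± 0.13) also fell in open flowers and rose in buds. JAZ7 (-2.76 ± 0.57) fell in open flowers and was not called in buds, and its tissue difference did not pass against ASK1 WT alone. JAZ2 (-0.83 ± 0.15) and JAZ9 (-0.98 ± 0.16) rose in buds and were not called in open flowers.

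MYC2, the transcription factor that JAZ proteins repress, was at 47.1 and 64.6 CPM in ask1 open flowers, against 90.9 to 179 CPM in controls, and at 75.2 and 195 CPM in ask1 buds, against 31.9 to 47 CPM in controls. It was below all controls in open flowers and above all controls in buds, by -2.93 ± 0.42 (edgeR Benjamini-Hochberg adjusted p = 0.00321). It overlaps AT1G32630 on the opposite strand. For LOX3, JAZ1, JAZ5 and MYC2 ask1 flower bud 2 was the highest bud library, and all 4 genes kept their calls without it.

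**Figure D3:**
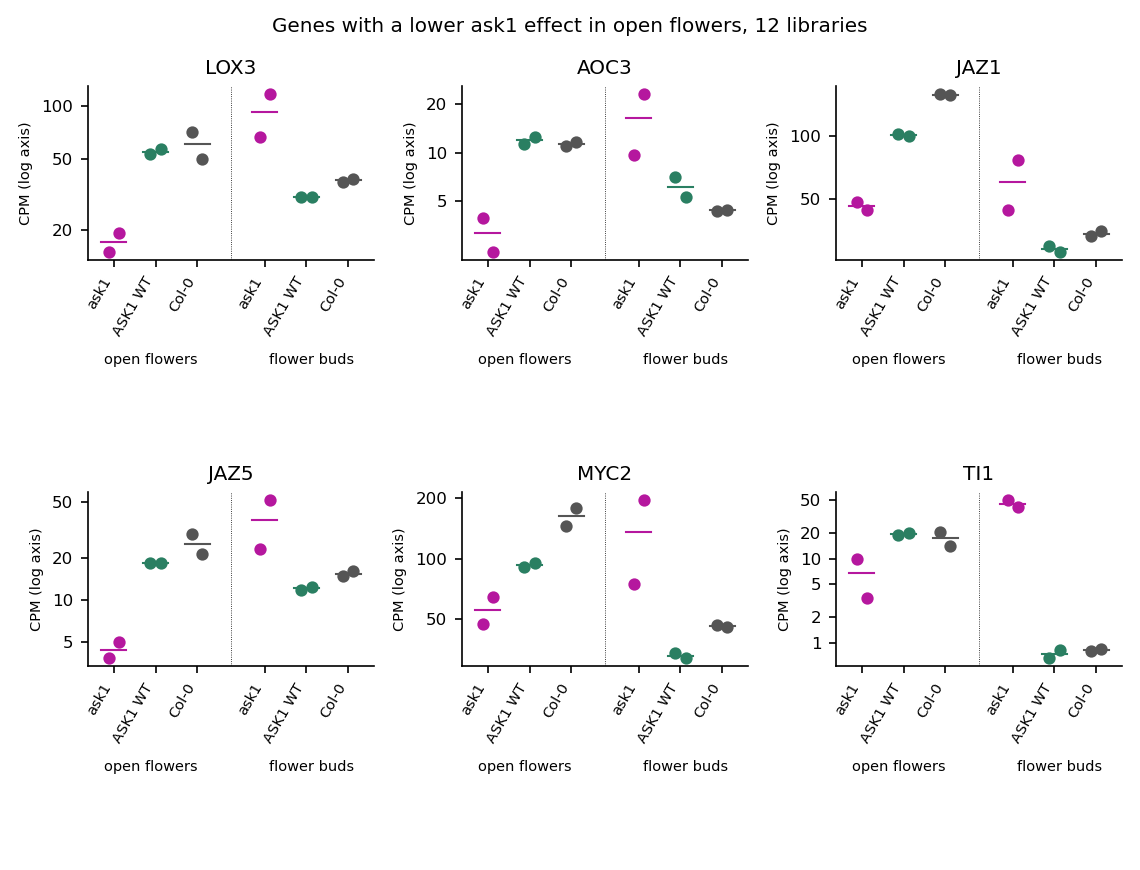
CPM on log axes (y) in the 12 libraries for 6 genes with a lower ask1 effect in open flowers, with groups on the x axis, 1 point per library and a bar at the group mean. In all 6 genes both ask1 libraries lie below the 4 controls in open flowers and above them in buds, TI1 with 49.4 and 41.2 CPM in ask1 buds.

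MYC2 and related factors bind the G-box, CACGTG. Searched in the 300 bases before the annotated gene start (the motif reads the same on both strands), it was present in 7.76% of 21822 tested genes with a promoter window, in 10.6% of the higher genes and in 9.57% of the lower ones. Among the 19 lower jasmonate genes 4 held it (JAZ2, JAZ7, JAZ8 and AOS), and 6 of all 46 tested jasmonate genes. The windows of JAZ2 and JAZ7, the pair of these whose calls did not depend on a single library, are shown from RefSeq TAIR10.1 with the G-box in capitals. It began 66 bases before the start of JAZ2 (chr1:28150447-28150746, minus strand) and 34 bases before the start of JAZ7 (chr2:14572730-14573029, plus strand). A match is a description of these letters and shows no binding.
JAZ2: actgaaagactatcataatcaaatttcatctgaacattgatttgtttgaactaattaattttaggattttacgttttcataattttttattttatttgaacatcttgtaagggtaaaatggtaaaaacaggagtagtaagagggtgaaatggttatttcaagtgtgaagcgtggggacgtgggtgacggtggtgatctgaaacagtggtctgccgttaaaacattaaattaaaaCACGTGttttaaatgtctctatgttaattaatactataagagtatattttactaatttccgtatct
JAZ7: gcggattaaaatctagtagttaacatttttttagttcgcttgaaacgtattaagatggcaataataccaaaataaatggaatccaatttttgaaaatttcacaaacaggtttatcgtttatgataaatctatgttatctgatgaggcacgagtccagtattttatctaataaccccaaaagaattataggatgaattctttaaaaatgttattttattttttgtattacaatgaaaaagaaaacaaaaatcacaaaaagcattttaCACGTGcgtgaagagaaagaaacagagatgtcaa

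JAZ2, beside its G-box, was at 33.3 and 36.5 CPM in ask1 open flowers, against 36.9 to 45.2 CPM in controls, and at 52.7 and 63.9 CPM in ask1 buds, against 32.6 to 43.6 CPM in controls. JAZ7 was at 1.86 and 0.648 CPM in ask1 open flowers, against 3.33 to 7.63 CPM in controls, and at 3.33 and 4.27 CPM in ask1 buds, against 1.29 to 2.84 CPM in controls. Neither gene overlapped the controls in either tissue.

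TI1 (AT2G43510, chromosome 2, 18066960 to 18067860 in TAIR10.1), a trypsin inhibitor gene, had the lowest tissue difference of the genes described here. It was at 9.89 and 3.42 CPM in ask1 open flowers, against 19 and 20.06 CPM in ASK1 WT and 20.6 and 14.3 CPM in Col-0. Its bud levels were 49.4 and 41.2 CPM in ask1, against 0.649 and 0.827 CPM in ASK1 WT and 0.785 and 0.84 CPM in Col-0. In controls it was a gene of open flowers, and in ask1 a gene of buds. It was 2.79-fold lower in ask1 open flowers and 57.6-fold higher in ask1 buds, a difference of -7.33 ± 0.50 (edgeR Benjamini-Hochberg adjusted p = 0.000144).

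Other genes with low tissue differences were EXT4, ACS2 and NAC036. The extensin gene EXT4 was at 15.4 and 31 CPM in ask1 open flowers, against 38 to 54.3 CPM in controls, and at 2.56 and 3.79 CPM in ask1 buds, against 0.13 to 0.259 CPM in controls. ACS2, which encodes an enzyme of ethylene synthesis, was at 2.38 and 2.36 CPM in ask1 open flowers, against 9.47 to 14.4 CPM in controls, and at 0.927 and 0.881 CPM in ask1 buds, against 0.224 to 0.414 CPM in controls. In both genes ask1 lay below the controls in open flowers and above them in buds, by -5.02 ± 0.58 and -3.91 ± 0.39. The NAC factor gene NAC036 (-4.06 ± 0.58) rose by 3.54 in buds and was not called in open flowers.

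Of 31 defence and salicylate genes 12 were lower in open flowers (38.7%, against 3.86% of all genes) and 1, PR5, higher. Members that changed did so in different ways. HR4, a relative of disease resistance genes, rose in both tissues, more in buds. It was at 59.2 and 85.9 CPM in ask1 open flowers, against 13.9 to 29.7 CPM in controls, and at 24.8 and 41.7 CPM in ask1 buds, against 1.49 to 2.81 CPM in controls. PR5, a thaumatin-like pathogenesis-related gene, also rose in both tissues, more in open flowers, at 73.5 and 89.7 CPM in ask1, against 11.9 to 18.3 CPM in controls, and at 12.9 and 16.3 CPM in ask1 buds, against 5.32 to 8.18 CPM in controls. For both genes the ask1 libraries lay above all controls in both tissues. Differences were -2.04 ± 0.34 for HR4 and 1.34 ± 0.18 for PR5. PCC1 (-2.75 ± 0.47), a pathogen-responsive and clock-controlled gene, fell in open flowers, and AED1 (-2.09 ± 0.39), a secreted protease gene, rose in buds. Against Col-0 alone HR4 and AED1 did not pass (-1.39 and -1.45). The lower count was 7 without ASK1 WT flower bud 1 or without Col-0 flower bud 2.

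Rapid stress transcription factors had the largest share of lower calls among the lists, and 4 of their 22 calls held whichever library was left out. Of 38 genes 21 were lower (55.3%, against 3.86% of all genes) and 1 higher, with 3 rises and 10 falls in open flowers and 24 rises and 2 falls in buds. These genes respond to touch and wounding within minutes, and ask1 flower bud 2 was high in them. The part of that library in the result was not tested beyond leaving it out. Without that library 12 genes were lower, without ask1 open flower 1 5 were, and without ask1 open flower 2 9 were. WRKY40 was at 2.38 and 4.18 CPM in ask1 open flowers, against 10.9 to 28.4 CPM in controls, and at 1.58 and 20.7 CPM in ask1 buds, against 0.325 to 1.07 CPM in controls. Both bud libraries exceeded the controls, 1 of them by far. Its difference was -6.81 ± 1.16, and was -4.03 without ask1 flower bud 2, while the call was lost without ask1 open flower 1. ERF11 (-6.71 ± 1.01) and ERF13 (-6.19 ± 0.98), ethylene response factor genes, stood at -4.61 and -4.45 without ask1 flower bud 2, and kept their calls. ERF2 (-3.12 ± 0.56) and WRKY53 (-2.38 ± 0.43) kept theirs as well. ORA47 (-5.88 ± 1.06), a jasmonate-responsive factor gene, stood at -3.89 without ask1 flower bud 2 and lost the call without either ask1 open-flower library. WRKY40, WRKY53 and ORA47 each overlap a gene on the opposite strand.

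**Figure D4:**
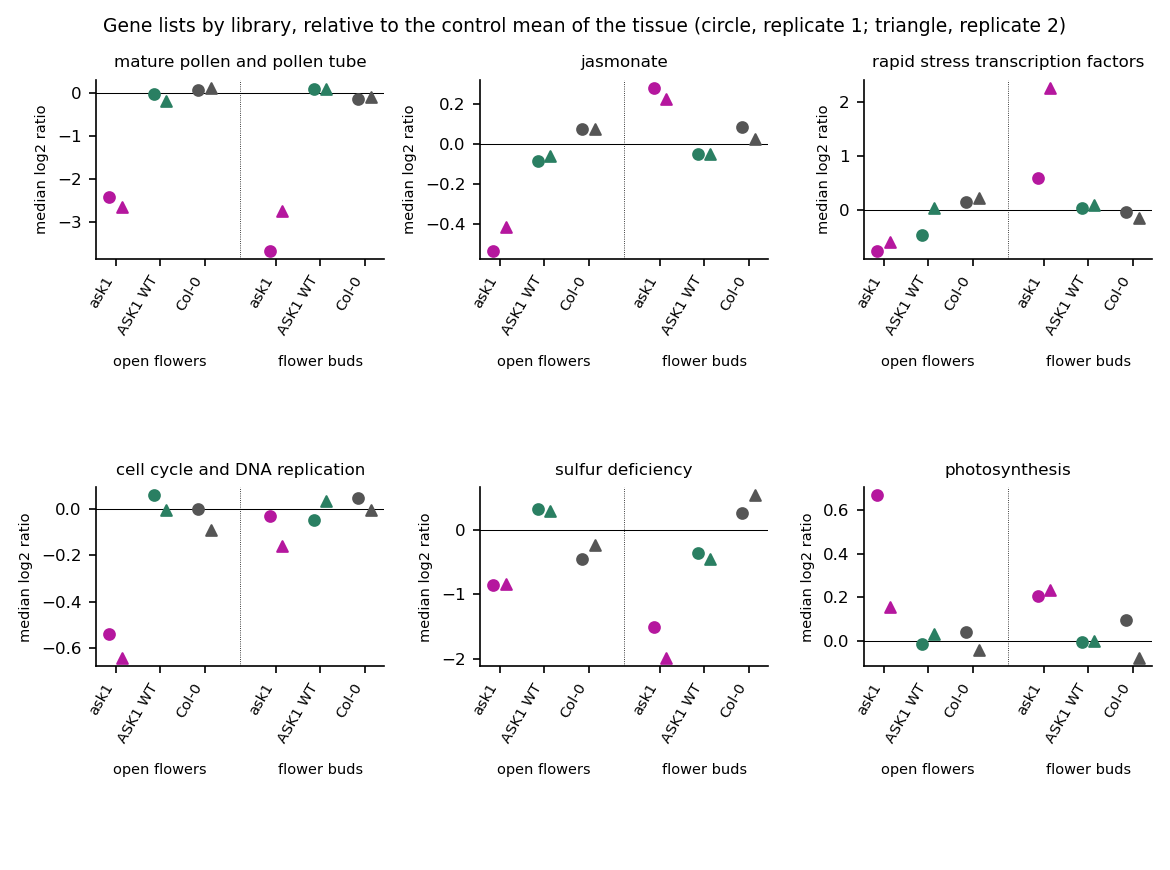
For 6 gene lists, the median over tested members of the log2 ratio to the mean of the 4 control libraries of the tissue (y), 1 point per library by group (x), circles for replicate 1 and triangles for replicate 2. The medians of both ask1 libraries of a tissue are close for jasmonate (-0.537 and -0.418 in open flowers, 0.282 and 0.225 in buds). Single jasmonate genes differ more between the ask1 buds, with MYC2 at 75.2 and 195 CPM and LOX2 at 2226.5 and 1532.5 CPM. Medians of ask1 buds are at 0.595 and 2.25 for rapid stress factors, and those of ask1 open flowers at 0.668 and 0.157 for photosynthesis.

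Cell cycle and DNA replication genes fell in ask1 open flowers and hardly in buds. Of 46 genes 29 fell and 1 rose in open flowers, and 2 fell and 0 rose in buds, with medians of -0.535 and -0.0934. The tissue difference was lower in 12 (26.1%, against 3.86% of all genes) and higher in 0 (1 at an unadjusted p under 0.05, 0 by DESeq2). CYCA2;4, a mitotic cyclin gene, was at 3.66 and 3.95 CPM in ask1 open flowers, against 8.54 to 10.4 CPM in controls, and at 14.6 and 12.9 CPM in ask1 buds, against 12.5 to 13.6 CPM in controls. It was apart from the controls in open flowers and overlapped them in buds, by -1.39 ± 0.19 (edgeR Benjamini-Hochberg adjusted p = 0.00275). CYCB3;1, another cyclin gene, differed by -1.38 ± 0.22.

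All 6 genes of the MCM helicase, the ring that unwinds DNA for replication, were lower. MCM6 was at 11.8 and 13.6 CPM in ask1 open flowers, against 25.6 to 29 CPM in controls, and at 35.2 and 25.5 CPM in ask1 buds, against 30.3 to 34.3 CPM in controls. Its ask1 libraries lay below all controls in open flowers, 2.15-fold lower on average, and straddled the controls in buds. Differences were -1.03 ± 0.19 for MCM6, -0.79 ± 0.15 for MCM3, -0.77 ± 0.16 for MCM5, -0.67 ± 0.14 for MCM4, -0.64 ± 0.15 for MCM7 and -0.83 ± 0.23 for MCM2. MCM3 and MCM6 kept the call whichever library was left out. MCM5 lost it without ask1 flower bud 1, MCM4 without that library or ASK1 WT flower bud 1, MCM7 without that library or any control bud library, and MCM2 without any library other than the ask1 open-flower pair. Against Col-0 alone MCM2, MCM5 and MCM7 did not pass, against ASK1 WT alone MCM2 did not, and MCM4 did not with the length trend removed. The list count was 4 without ask1 flower bud 1, 5 to 7 without a single control bud library, 25 without ask1 open flower 1 and 20 without ask1 open flower 2.

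Senescence and abscission genes gave 6 lower (20%, against 3.86% of all genes) and 1 higher of 30. HAE, the receptor kinase of floral organ abscission, was at 35 and 60.9 CPM in ask1 open flowers, against 98.2 to 141 CPM in controls, and at 16 and 24.5 CPM in ask1 buds, against 12.1 to 16.8 CPM in controls. SAG13, a marker of ageing tissue, was at 65.1 and 63 CPM in ask1 open flowers, against 89.6 to 132 CPM in controls, and at 7.2 and 5.35 CPM in ask1 buds, against 2.86 to 4.35 CPM in controls. Both were low in ask1 open flowers. In buds HAE overlapped the controls and SAG13 lay above them, and the differences were -1.79 ± 0.33 and -1.58 ± 0.25. RNS1 (-1.68 ± 0.29), a secreted ribonuclease gene, fell in open flowers alone, and RNS3 (0.88 ± 0.14), another ribonuclease gene, fell in buds. The lower count was 11 without ask1 open flower 1 and 12 without ask1 open flower 2.

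Few genes of the SCF machinery itself passed with all libraries. This does not show equal effects in the tissues, and more of them passed without ask1 open flower 2. Of 37 SCF partner and studied F-box genes 1 was higher (AFB1, an auxin receptor gene, 0.63 ± 0.16) and 1 lower (CUL2, a cullin-like gene, -2.35 ± 0.40), shares below those of all genes. Both overlap a gene on the opposite strand, and CUL2 was at 0.257 and 0.236 CPM in ask1 open flowers, against 1.55 to 2.42 CPM in controls. AFB1 lost the call without any library other than the ask1 open-flower pair and ASK1 WT flower bud 2, and also with no filter on low counts, with other size factors (RLE) and against Col-0 alone, where it was 0.35 (edgeR Benjamini-Hochberg adjusted p = 0.288). Without ask1 open flower 2, 8 were higher and 11 lower. Of 276 tested genes annotated as F-box, 12 were higher (4.35%, against 6.23% of all genes) and 2 lower. The higher count was 39 without ask1 open flower 2, 7 without ask1 open flower 1 and 2 to 4 without ask1 flower bud 1 or any single control library. Of 14 tested ASK genes 1, ASK3, was lower, at 0.128 and 0 CPM in ask1 open flowers and 0.495 to 1.57 CPM in control open flowers, and it lost the call without any of 8 libraries. None of 39 genes of the 26S proteasome and none of 44 photosynthesis genes passed in edgeR or in DESeq2, and 2 and 3 were higher at an unadjusted p under 0.05. The largest differences were 0.54 ± 0.28 for PAD2 and 0.65 ± 0.32 for RBCS2B, which were -0.11 and 0.064 without ask1 open flower 1. Both lists depended on the ask1 open-flower pair, with 25 proteasome and 31 photosynthesis genes higher without replicate 2, and 3 and 5 lower without replicate 1.

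In the remaining lists most calls did not hold whichever library was left out, and counts are to be read against the 6.23% of all genes that were higher and the 3.86% that were lower. In the male germline list 2 of 13 were higher (15.4%, DAZ3 and TET11), in the meiosis list 1 of 36 was higher (ASY1) and 3 lower (ASY3, JASON, ATK1), and in the floral organ identity list 4 of 24 were higher (16.7%, AP3, PI, CRC and CUC1). In the pistil and ovule list 3 of 34 were higher (SPT, CRC, HAF), and in the seed and endosperm list 1 of 13 was lower (EDE1). None of the calls in those 5 lists held whichever library was left out. The auxin-induced SAUR and GH3 list had 2 higher and 1 lower of 22, the gibberellin list 2 and 1 of 31, the heat shock list 3 and 1 of 16 (18.8% and 6.25%), the indole glucosinolate list 1 and 3 of 25 (4% and 12%), the iron deficiency list 1 and 1 of 20 and the flavonoid list 1 and 1 of 28.

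**Figure D5:**
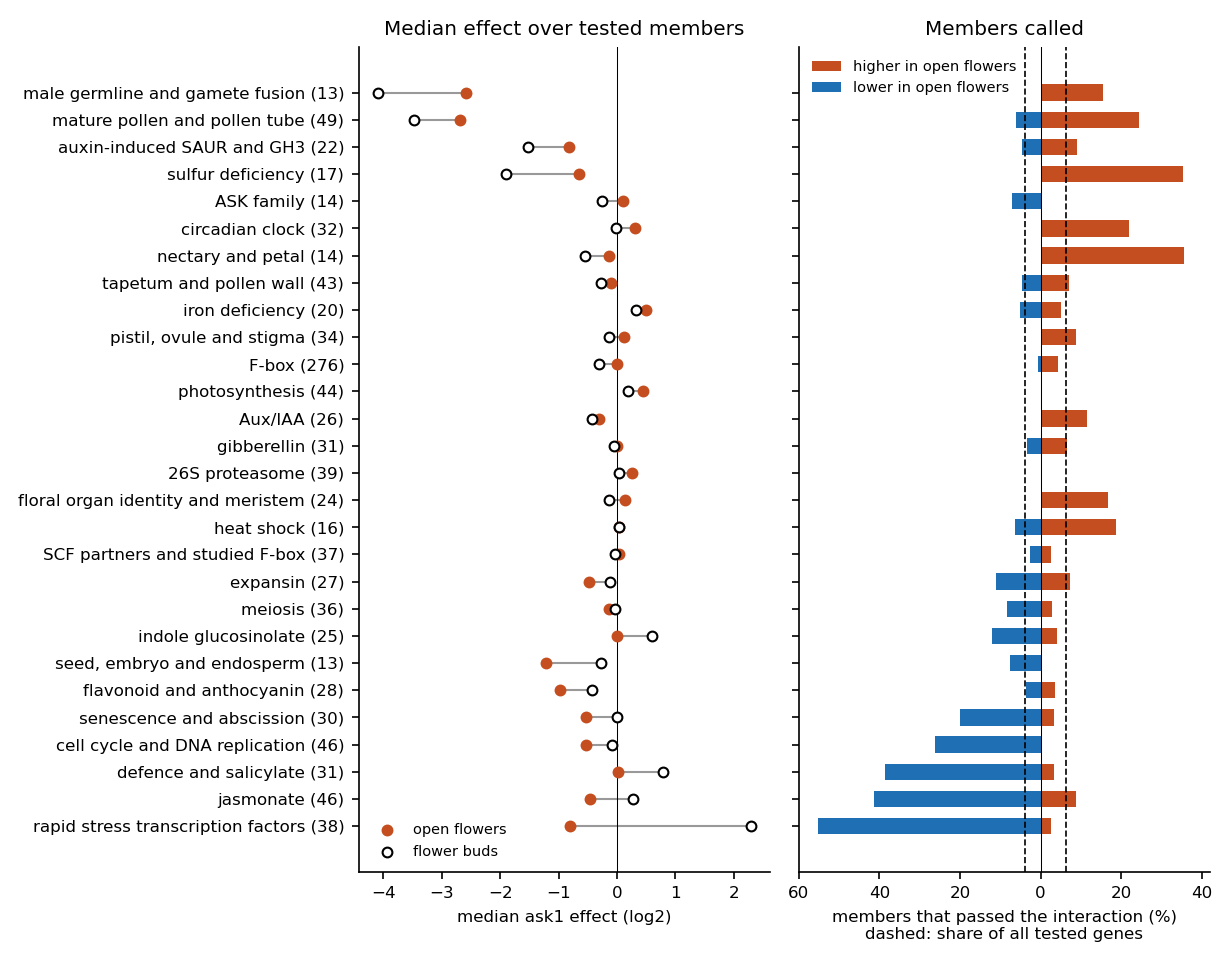
For each gene list (number of tested members in parentheses), the left panel shows the median ask1 effect (log2) in open flowers (filled) and buds (open), and the right panel the share of members (%) whose effect was higher or lower in open flowers, with dashed lines at the shares of all tested genes, 6.23% and 3.86%. Sulfur-deficiency, nectary and pollen genes lie to the higher side, and jasmonate, defence, rapid stress and cell cycle genes to the lower side. The place of the sulfur-deficiency genes depended on the control, with 2 higher and 1 lower against ASK1 WT alone.

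The tissue difference was also set beside normal development. Genes were classed by Col-0 alone, as at least 4-fold higher in its open flowers or in its buds, and the tissue difference was then taken against ASK1 WT alone, so that no library served both. Over all genes 975 (4.45%) were then higher and 517 (2.36%) lower, with a median of 0.0772. Of 1468 genes that were higher in Col-0 buds, 170 (11.6%) had a higher and 16 (1.09%) a lower ask1 effect in open flowers, with a median of 1.05. In ask1 buds against ASK1 WT, 672 of the 1468 genes fell (45.8%, against 17% of all genes) and 25 rose (1.7%, against 8.84%). The median effect of the class against ASK1 WT was 0 in open flowers and -1.1 in buds. Genes of this bud class are low in control open flowers and have little room to fall there. A fall in buds then gives a higher difference, so the classing itself favours that direction, also for pollen genes of the class. Of 1565 genes that were higher in Col-0 open flowers, 162 (10.4%) had a higher and 106 (6.77%) a lower effect, with a median of 0.055. In that class 702 genes (44.9%, against 15.9% of all genes) fell in ask1 open flowers, and 493 (31.5%, against 17%) fell in ask1 buds. A rise in ask1 buds was called for 157 genes of the class (10%), a share near the 8.84% of all genes. TI1 and EXT4 rose in buds, where more genes of the class fell than rose. Of the 49 pollen genes, 8 were in the bud class with 6 higher and a median of 3.98, and 18 in the open-flower class with 5 higher and a median of 1.4. Of the 38 rapid stress genes, 29 were in the open-flower class with 1 higher and 12 lower. The lower cell cycle genes and most lower jasmonate genes were in neither class, with 9 of 46 and 13 of 41 lower.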

How the data were processed

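RNA-seq libraries of 150-nt paired-end reads were made from 12 samples. The deposited values are raw HTSeq counts per gene, which the authors made from reads trimmed with Trimmomatic and aligned with TopHat2 to TAIR10, per the submitters' processing notes. For tool versions and strand setting the sources used here give no value, so genes that overlap on opposite strands are named as such. Between 7.60% and 9.71% of each library's counts fell in the summary rows for reads not assigned to a gene, and these rows were left out of totals and tests. Of 33602 gene IDs 32835 matched the TAIR10.1 RefSeq annotation, from which symbols, coordinates and promoter windows came.

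Genes were kept with edgeR's filterByExpr (minimum count 10, minimum total 15), scaled by TMM and fitted with robust quasi-likelihood models on 6 group means, leaving 6 residual degrees of freedom. SEs are the effect divided by the square root of F. p-values were adjusted by Benjamini-Hochberg over all tested genes at 0.05. The fits were tested on simulated data. A floor of 3 counts was 0.135 to 0.203 CPM, and it covers counting error only. Replicate numbers follow accession order and only name libraries.

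The genes and gene lists were chosen with earlier results of these data known. The rule for named genes took ASK1 and ASK2, the 12 highest and 12 lowest tissue differences with a symbol, at least 10 counts in each of the 4 ask1 or control groups of a tissue, a mean of at least 1 CPM in one of them and one sign against each control and each pairing of ask1 libraries, the 5 largest each way with opposite effects, and up to 4 called members per list. Other genes named, and the choice of which to describe, were made after their values were seen. Alternatives were other size factors, other filters, DESeq2, limma-voom, either control alone, removal of the trend with gene length, a 2-fold minimum, and leaving out libraries; 1 combination was added after seeing the data. R 4.3.3, edgeR 4.0.16, limma 3.58.1, DESeq2 1.42.0, Python 3.11.15, pandas 2.3.3 and matplotlib 3.10.9 were used.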

Additional observations from a re-analysis of the deposited data

Results flagged for a closer look

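The ask1 effect differed between open flowers and buds, by the test of the difference itself, in each of 81 genes described above. Values are log2 effects in open flowers minus those in buds, and the genes were picked from all those that passed, so their number carries no further weight. Among transporters and pumps the difference was 5.67 for HA9, 4.61 for SULTR3;5, 4.46 for TIP1;3, 4.91 for PHT1;7, 5.67 for STP6, 4.91 for STP9, 3.55 for AHA6, 4.24 for VATG3, 2.21 for SUC1 and 2.35 for STP4. For pollen, pollen coat, enzyme and other genes it was 7.26 for LCR5, 4.09 for GLN1;5, 4.50 for LARP6c, 2.69 for AGL94, 2.58 for GRP18, -2.16 for MYB101 and 4.83 for AAE11. The value in stamen MYB factors was 4.09 for MYB24, 3.89 for MYB57, 2.70 for MYB108 and 1.68 for MYB21. Among genes on the nectary and petal list the difference was 3.89 for SWEET9, 2.19 for TPS21, 1.47 for FPF1, 1.195 for BPEP and 0.74 for CRC. For sulfur-deficiency genes it was 2.26 for SULTR1;2, 2.86 for LSU1, 1.54 for LSU2, 2.63 for LSU3 and 1.91 for LSU4. The value in clock genes was 3.41 for BOA, 1.29 for LUX and 1.82 for CDF1. Among auxin and expansin genes the difference was 1.82 for IAA14, 2.18 for IAA19, 2.37 for EXPA11 and -1.42 for EXPA4. For jasmonate biosynthesis genes it was -1.70 for LOX2, -3.19 for LOX3, -4.42 for LOX4, -1.07 for AOS, -3.53 for AOC3, -2.73 for OPCL1 and -1.35 for OPR3. The value in jasmonate signalling genes was -2.39 for JAZ1, -0.83 for JAZ2, -3.74 for JAZ5, -1.33 for JAZ6, -2.76 for JAZ7, -0.98 for JAZ9, -0.71 for JAZ10 and -2.93 for MYC2. Among TI1 and the genes described after it the difference was -7.33 for TI1, -5.02 for EXT4, -4.06 for NAC036 and -3.91 for ACS2. For rapid stress factors it was -6.81 for WRKY40, -6.71 for ERF11, -6.19 for ERF13, -3.12 for ERF2, -2.38 for WRKY53 and -5.88 for ORA47. The value in defence genes was -2.75 for PCC1, -2.04 for HR4, 1.34 for PR5 and -2.09 for AED1. Among senescence and abscission genes the difference was -1.79 for HAE, -1.68 for RNS1, -1.58 for SAG13 and 0.88 for RNS3. For cell cycle genes it was -1.39 for CYCA2;4, -1.38 for CYCB3;1, -0.83 for MCM2, -0.79 for MCM3, -0.67 for MCM4, -0.77 for MCM5, -1.03 for MCM6 and -0.64 for MCM7. The value in SCF genes was -2.35 for CUL2 and 0.63 for AFB1. The libraries whose omission ended a call are named with each gene in the results.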

How the results depend on the processing

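With all 12 libraries, 1364 genes had a higher and 846 a lower ask1 effect in open flowers. The higher count was 902 with no filter on low counts, 613 against Col-0 alone and 877 at 2-fold or more. The lower count was 1293 with DESeq2, 517 against ASK1 WT alone, 473 against Col-0 alone, 1496 with the trend with gene length removed, 497 at 2-fold or more and 2834 without both ask1 flower bud 2 and ask1 open flower 1. With the length trend removed and ask1 flower bud 2 left out, an alternative chosen after seeing the data, 1675 were higher and 1241 lower. Leaving out 1 library at a time gave 543 to 5188 higher and 445 to 4228 lower genes, both highest counts being those without ask1 open flower 2. The number of genes changed in open flowers was 7992, against 2840 at 2-fold or more and 5622 to 12090 without 1 library. In buds it was 6266, against 2880 at 2-fold or more and 3816 to 9885 without 1 library. The cause of these shifts was not tested, beyond the fewer samples or stricter threshold that the alternatives impose. No gene with a called tissue difference among the 132 followed changed sign under the alternatives run. Of the uncalled ones, ASK2 was -0.0059, RBCS2B -0.17 and PAD2 -0.15 without both ask1 flower bud 2 and ask1 open flower 1, and PAD2 was -0.11 without ask1 open flower 1, against 0.93 without ask1 open flower 2, and the cause was not tested. Against ASK1 WT alone 28 of 132 genes lost the call, and against Col-0 alone 40 did. No paired analysis was possible because the labels give the libraries no replicate numbers that tie ask1 samples to control samples. Depth limits the values below the floor of 3 counts.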
